A study of Mus musculus with 6 samples.

Results

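B cells made up 537 of the 44112 barcodes that passed the quality filter in cell suspensions from mouse brain microvessels. A barcode, which stands for the content of a droplet, was taken as a B cell when the unique molecular identifiers (UMIs, counted transcript molecules) of *Cd79a*, *Cd79b* and *Ms4a1* summed to at least 3, those of the endothelial genes *Cldn5* and *Flt1* to at most 3, and those of the myeloid genes *C1qa* and *Csf1r* to at most 2. Only barcodes with 500 to 4500 detected genes and under 10% mitochondrial UMIs were considered. The members were thus chosen by UMIs of these 7 genes, and B cell levels set against those of other cells are a description with no test.

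The cells came from 6 male mice of 12 months, with 1 library per mouse from 1 cerebral hemisphere. The WT group held 3 C57BL/6J mice and the AppArcSwe group (ArcSwe in what follows) 3 mice of a transgenic *App* line that serves as a model of Alzheimer's disease and cerebral amyloid angiopathy. The sources used here do not name the promoter of the transgene. Vessel fragments were captured with CD31 antibody beads, digested to single cells and sequenced with 10x Genomics 3′ chemistry. The mice were killed by cervical dislocation and no perfusion is described, so that B cells of the blood, of the vessel wall and of adhering meninges cannot be told apart in these data.

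B lymphocytes recognize antigen through the B cell receptor, a membrane immunoglobulin held by the signalling chains *Cd79a* and *Cd79b*. They arise in bone marrow, where precursors rearrange the heavy chain first with the help of the surrogate light chain (*Vpreb1*, *Igll1*), and then the kappa or the lambda light chain. Mature naive cells carry IgM and IgD and circulate through blood and lymphoid tissue. On activation they can divide, switch to IgG, IgA or IgE, and become plasma cells that secrete antibody, and they present peptides on MHC class II to T cells.

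*Cd79a*, the leading gene of the rule, lies at chr7:24897381-24902197 on the plus strand of GRCm38. Its promoter is shown because the transcription factor *Ebf1*, which establishes the B lineage and was among the most abundant transcripts of these cells, is known to bind there. The window runs from 250 bases before to 50 after the RefSeq start (GRCm38.p6, chr7:24897247-24897546, plus strand, 5′ to 3′), and the capitals mark CAAGGGAAT, whose last letters form an arm of the *Ebf1* motif.
Cd79a promoter: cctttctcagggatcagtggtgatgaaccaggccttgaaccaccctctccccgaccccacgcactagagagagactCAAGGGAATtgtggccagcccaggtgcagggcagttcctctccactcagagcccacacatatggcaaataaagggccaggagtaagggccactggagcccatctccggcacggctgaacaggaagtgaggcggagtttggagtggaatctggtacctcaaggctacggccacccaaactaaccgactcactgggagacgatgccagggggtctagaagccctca
The match starts 174 bases before the start site. Searched on both strands, CAAGGGAAT was found in 80 of 32817 RefSeq promoter windows of this length (0.244%) and the octamer ATGCAAAT, bound by Oct factors in immunoglobulin promoters, in 570 (1.74%). The octamer was not in the *Cd79a* window, and neither motif was in the windows of *Pax5* or *Ebf1*. Windows were at hand for 2 of the 5 marker genes (*Cd79a*, *Pax5*) and for 9 of the 20 genes most enriched in the B cells, with *Cd79a* alone among the latter holding CAAGGGAAT. A match of letters does not show that a factor binds.

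The libraries held 6772, 6212 and 9159 barcodes in the WT mice and 9081, 2907 and 14928 in the ArcSwe mice (replicates 1, 2 and 3 in this and every later list), from 26436229 to 59161203 UMIs each. After filtering, 6204, 5709 and 8166 WT barcodes and 8265, 2379 and 13389 ArcSwe barcodes remained. The B cells among them numbered 130, 99 and 58 in the WT mice (287) and 114, 27 and 109 in the ArcSwe mice (250). They were shallower than endothelial barcodes of the same libraries. Their median depth was 3216.5, 2922 and 2601 UMIs in the WT mice and 2914.5, 3648 and 2283 in the ArcSwe mice, against 3090 to 5730 in endothelial barcodes, and their summed counts ran from 95144 to 422854 UMIs per mouse. ArcSwe replicate 2 therefore rests on 27 cells. ArcSwe replicate 3, the shallowest, stood apart from the other 5 mice in several maturation genes described further on, and the genotype differences in them are given with and without it. Any pair of libraries shared between 3 and 33 barcode sequences, and 1 sequence was a B cell in both members of a pair.

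As a share of the passing barcodes, B cells made up 2.10%, 1.73% and 0.710% in the WT mice and 1.38%, 1.13% and 0.814% in the ArcSwe mice. WT replicate 3 was the lowest of all and WT replicate 1 the highest, so that the 3 ArcSwe values fell inside the WT range. Exact (Clopper-Pearson) 95% intervals, which here and elsewhere cover counting error only, ran from 0.540% to 0.917% in WT replicate 3 and from 1.75% to 2.48% in WT replicate 1. The means were 1.51% ± 0.719 (SD, n = 3) and 1.11% ± 0.283 (SD, n = 3), a difference of -0.404 percentage points (p = 0.5, exact permutation test, two-sided). With 3 mice in each group no p under 0.1 is possible. The size of the difference rested on single mice. It was -0.113 points without WT replicate 1 and -0.256 without ArcSwe replicate 3, and without WT replicate 3 it was -0.805, with both remaining WT values above all 3 ArcSwe values (p = 0.1 by exact permutation, the smallest possible). Per 100 barcodes with T or NK cell transcripts, of which there were 201, the WT mice had 361, 412.5 and 187 B cells and the ArcSwe mice 204, 159 and 295. The means of 320 ± 118 and 219 ± 69.2 (SD, n = 3 each) overlapped as well (p = 0.3, exact permutation test, two-sided). Their difference of -101 was -55.1 without WT replicate 2 and -168 without WT replicate 3. The T and NK barcodes were not all of these types. In WT replicate 3 and ArcSwe replicate 3, 1 barcode each held 6853 and 3640 UMIs of the neutrophil genes *S100a8* and *S100a9* with 5 and 4 UMIs of *Nkg7* and 0 of T cell genes, so that neutrophil and monocyte genes summed to 51769 and 25961 CPM (UMIs scaled to a total of 1000000) in the T and NK barcodes of these mice, against 234 to 657 in the others. Without both barcodes, a repeat added after the values were seen, these mice had 193 and 303 B cells per 100 (p = 0.3 again by exact permutation), and the order of B cells against T and NK barcodes turned for 7 of the 295 list genes used below, none of them among the identity, receptor signalling, mature naive or MHC class II genes.

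**Figure D1:**
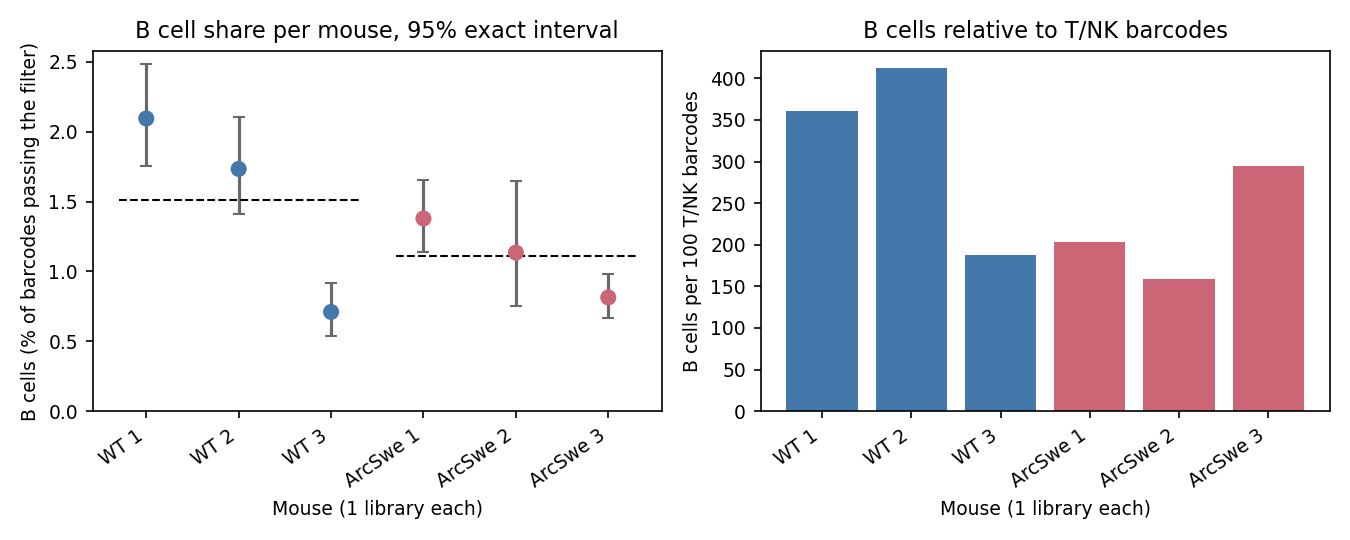
Left, B cell share of the barcodes passing the filter in each of the 6 mice (percent, points with exact 95% binomial intervals, dashed lines for the group means), and right, B cells per 100 T and NK barcodes (bars). On the left the 3 ArcSwe mice, from 0.814% to 1.38%, sit within the WT range of 0.710% to 2.10%.

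The limits of the rule removed 107 of the 644 barcodes that met the marker sum, 87 through the endothelial and 29 through the myeloid limit. They made up 9.72%, 9.17% and 20.5% of the marker-positive barcodes in the WT mice and 17.4%, 18.2% and 25.9% in the ArcSwe mice, with overlap (p = 0.3, exact permutation test, two-sided). At 6656 to 11870.5 UMIs in the median, the removed barcodes were deeper than the B cells of every mouse, and their nature was not tested. No doublet caller was run, and 6 of the 537 B cells held at least 5 UMIs of mural genes. Just outside the threshold of 3 marker UMIs, 74 barcodes stood at 1 and 17 at 2, and *Cd74*, the MHC class II invariant chain, was seen in 33.8% and 94.1% of them. Just inside it, 31 stood at 3, 27 at 4 and 32 at 5, with *Cd74* in 100%, 96.3% and 90.6%. Of the 4778 barcodes within the same limits that held none of the 3 genes, 7.72% had *Cd74*. Of the B cells, 364 held all 3 marker genes, 154 held 2 and 19 held 1.

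The label of B cell was borne out by genes outside the rule. *Ly6d*, a small surface protein of the lymphoid lineage (chr15:74762056-74763620), was at 1554, 2139 and 1986 CPM of the B cell UMIs of the mouse in the WT mice and 1697, 1566 and 2288 in the ArcSwe mice. *Pax5*, the transcription factor that fixes B cell identity (chr4:44524757-44710487), was at 480, 414 and 790 CPM and at 536, 410 and 506. Both were high in all 6 mice, with overlapping genotypes, and both were at 0 in the T and NK barcodes. *Ly6d* was seen in 91.0% and *Pax5* in 71.3% of B cells in the mean over mice, against 0.513% and 0.262% of endothelial barcodes, which are deeper.

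Among the genes of the rule itself, *Cd79a* was at 2110 ± 182 CPM (SD, n = 6 mice), *Cd79b* (chr11:106311341-106314762) at 1080 ± 174 and *Ms4a1*, which encodes CD20 (chr19:11249675-11266241), at 865 ± 82.3. *Ebf1* (chr11:44617317-45008091) reached 3627 ± 584 CPM and was seen in 99.1% of B cells, although endothelial barcodes also carried it at 1395 CPM. Of the 16 identity genes that the rule did not use, each was seen in at least 10% of B cells, and 15 were higher in B cells than in T and NK, endothelial and microglial barcodes alike. The exception was *Blnk*, an adaptor of the B cell receptor, at 422 CPM in B cells and 463 in microglial barcodes. The scaffold protein *Bank1* was found at 2266 ± 641 CPM. *Fcmr*, the receptor for IgM, stood at 379 CPM, and *Cd37* and *Cd72*, membrane proteins of lymphocytes, at 627 and 267.

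The 15 most abundant transcripts of the B cells outside ribosomal protein and mitochondrial genes were led by the nuclear RNA *Malat1* (24233 CPM), *Cd74* (9712), the actin-binding *Tmsb4x* (8375) and the kappa constant region *Igkc* (7586). Below them came *Fau* (6243), *Tpt1* (4593), the histone gene *H3f3b* (4201), *Gm42418* (4182), *Ebf1* (3627), the AP-1 gene *Jund* (3579), *Actb* (3339), the elongation factor *Eef1a1* (3255), the MHC class II gene *H2-Eb1* (2990), the ferritin gene *Fth1* (2956) and *H3f3a* (2874). Only a few of these mark the lineage. By contrast, the 20 genes with the largest ratio over all other barcodes were nearly all known from B cells. *Igkc* led with a log2 ratio of 8.95 (pseudocount of 1 CPM, mean over 6 mice), followed by *Ly6d* (8.62), *Iglc2* (8.56), *Cd79a* (8.47), *Ms4a1* (8.22), *Iglc1* (8.20), *Iglc3* (8.13), the kinase *Blk* (8.02) and *Fcmr* (7.85). *Cd79b* (7.81), *Pax5* (7.77), *Ighd* (7.55), *Mzb1* (7.52), *Vpreb3* (7.47), *Aff3* (7.46), the low-affinity IgE receptor *Fcer2a* (7.46), the chemokine receptor *Ccr7* (7.20), the peptide exchange gene *H2-DMb2* (7.17), *Tmem163* (7.17) and *Gm8369* (7.15) completed the list.

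**Figure D2:**
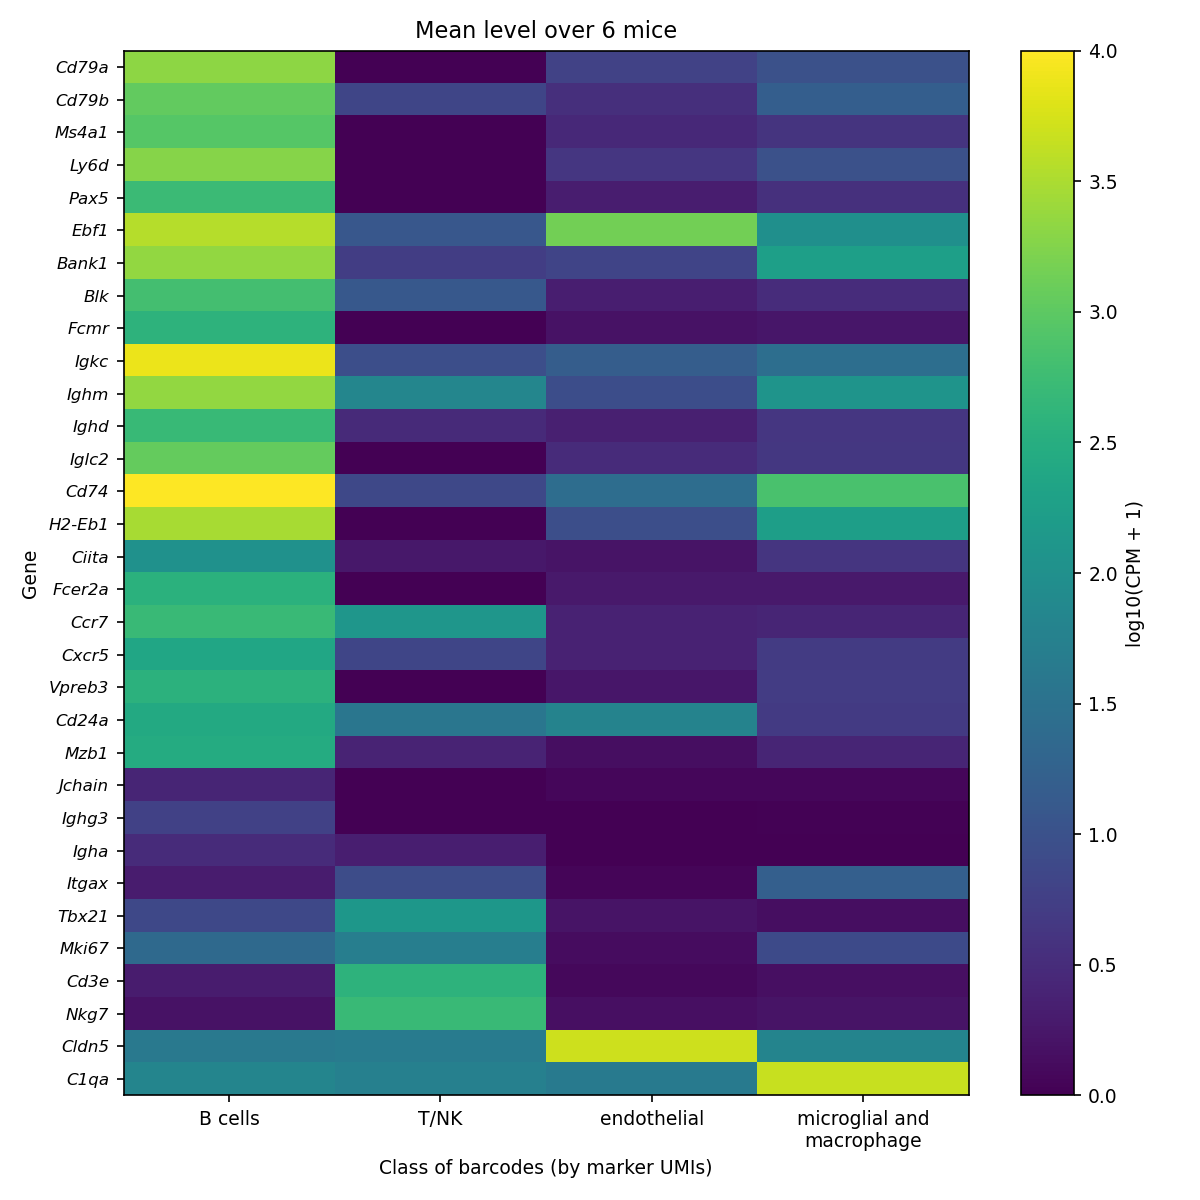
Mean level over the 6 mice, as colour on a log10(CPM + 1) scale, of selected genes (rows) in B cells and in T and NK, endothelial and microglial barcodes (columns). *Cd79a*, *Ly6d*, *Igkc* and *Cd74* are highest in B cells, while *Ebf1* is also present in endothelial barcodes.

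Genes that carry the signal of the B cell receptor were expressed throughout. All 21 members of the list were seen in at least 10% of B cells, 20 were higher than in T and NK barcodes, and 13 were higher than in T and NK, endothelial and microglial barcodes together. Of the proximal kinases, *Syk* was at 753 ± 123 CPM, *Lyn* at 702 ± 62.2, *Blk* at 628 ± 152 and *Btk* at 158. *Prkcb*, the kinase that feeds NF-κB, was at 778 ± 275 and the paracaspase *Malt1* at 498. Their brakes were present too, with the lipid phosphatase *Inpp5d* at 704 ± 254 CPM and the inhibitory receptor *Cd22* at 134.

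Transcripts of MHC class II, which presents peptides to T cells, were abundant. *Cd74* was at 10410, 9790 and 8890 CPM in the WT mice and at 10611, 11183 and 7385 in the ArcSwe mice. The antigen-binding chains *H2-Eb1*, *H2-Aa* and *H2-Ab1* had means of 2990, 2791 and 2665 CPM, against 175, 159 and 178 in microglial barcodes. *H2-Eb1* ran at 3874, 3124 and 2679 CPM in the WT mice and 3403, 2974 and 1887 in the ArcSwe mice, so that ArcSwe replicate 3 was lowest for both genes. Of the 13 genes of the list, 12 were higher in B cells than in all 3 other classes, the exception being the costimulatory *Cd86* at 640 CPM against 954. MHC class I was shared with the other cells, with *H2-D1* at 1578 CPM, *H2-K1* at 1269 and *B2m* at 1160, and 1 of 14 genes was higher in B cells than in all 3 classes.

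The heavy chains were those of unswitched cells. *Ighm*, the constant region of IgM (chr12:113418558-113422730), was at 2176, 2094 and 2377 CPM in the WT mice and 2163, 2281 and 2389 in the ArcSwe mice. *Ighd*, that of IgD (chr12:113406604-113416324), was at 690.5, 455.9 and 412.2 CPM and at 515.3, 546.5 and 298.7. *Ighm* differed little between mice, whereas *Ighd* varied more than 2-fold, with WT replicate 1 highest and ArcSwe replicate 3 lowest. Transcripts of both were held by 321 cells, of *Ighm* alone by 200, of *Ighd* alone by 9 and of neither by 7. The switched isotypes were nearly missing. *Ighg3* was at 5.00 CPM, *Igha* at 2.13 and *Ighg2b* at 1.88, while *Ighg1*, *Ighg2c* and *Ighe* had 0 UMIs in all mice. A switched UMI was found in 8 of the 537 cells and 3 or more in 1 cell of ArcSwe replicate 1. With every cell thinned to 1000 UMIs to equalize depth, which left 511 cells, 0 met the switched definition of at least 3 UMIs. For the share of such cells at this depth, the exact interval reached up to 2.82% in WT replicate 1 and 12.8% in ArcSwe replicate 2. Its upper ends in the other mice lay in between.

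Among the light chains, *Igkc* (chr6:70726435-70726966) was at 7423, 7584 and 7317 CPM in the WT mice and 7424, 8587 and 7182 in the ArcSwe mice. The lambda constant regions *Iglc2*, *Iglc1* and *Iglc3*, a cluster on chromosome 16, had means of 1142, 647 and 548 CPM. How well reads can be told apart between these related genes was not tested, so that their split is uncertain. Transcripts of both light chain types were held by 448 of the 537 cells (83.4%), of kappa alone by 64, of lambda alone by 21 and of neither by 4. Kappa dominated within cells, with a median of 22, 20 and 18 UMIs in the WT mice and 18.5, 28 and 16 in the ArcSwe mice, against 3 to 5 UMIs of lambda. In thinned cells, kappa was seen in 94.8% ± 1.02 (SD, n = 3) of WT and 94.0% ± 5.22 of ArcSwe B cells, against 0.400% and 0.489% of endothelial barcodes. Lambda was seen in 70.8% ± 8.67 and 68.0% ± 10.4, against 0.244% and 0.400%. The genotype ranges overlapped for both (p = 1 for kappa and 0.8 for lambda by exact permutation, two-sided). In 1 random draw of 500 UMIs per cell, lambda was seen in 44.2% of WT and 54.0% of ArcSwe B cells in the mean, without overlap (p = 0.1 by exact permutation, the smallest possible). The expected share over all such draws, added after the values were seen, was 49.6%, 52.2% and 48.4% in the WT mice and 61.2%, 44.9% and 46.8% in the ArcSwe mice, with overlap (p = 1, exact permutation).

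Cells in which lambda outnumbered kappa formed a minority. They numbered 13, 10 and 7 in the WT mice and 19, 1 and 6 in the ArcSwe mice, 56 in all (10.4%), or 10.0%, 10.1% and 12.1% against 16.7%, 3.70% and 5.50%. The 3 WT shares lay within the ArcSwe range (p = 0.8, exact permutation test, two-sided). Their median lambda content was 19, 41.5 and 19 UMIs in the WT mice and 20, 9 and 29 in the ArcSwe mice, while kappa stood at 2 to 17 UMIs. In the remaining cells lambda was at 3 to 4 UMIs and kappa at 16 to 29, a contrast that the choice of the cells by these same UMIs makes.

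**Figure D3:**
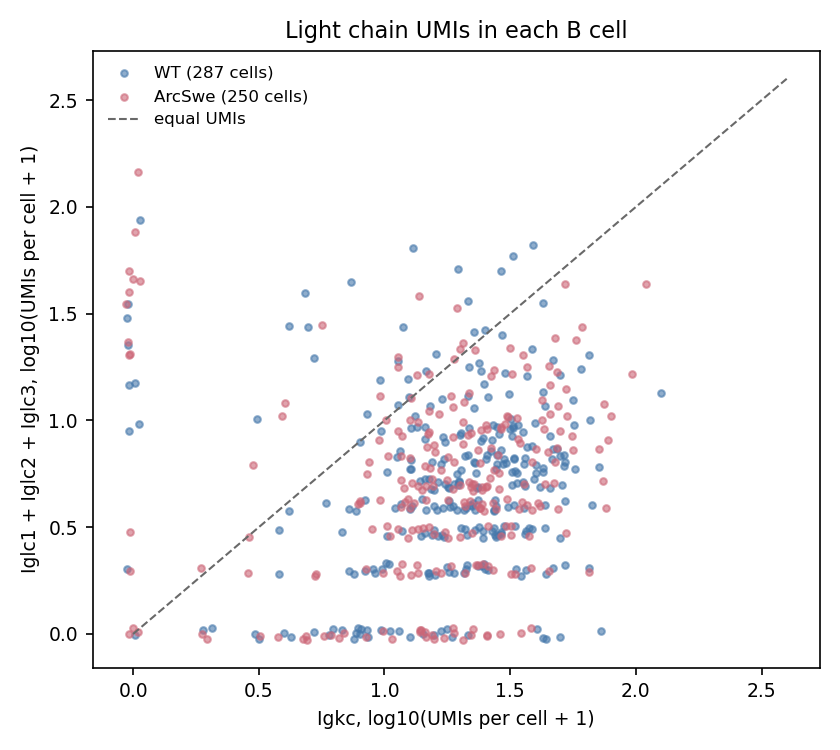
UMIs of kappa (*Igkc*) and lambda (*Iglc1*, *Iglc2* and *Iglc3* summed) light chain constant regions in each B cell (points), on log10(UMIs + 1) axes, with a dashed line at equal numbers. Most cells lie on the kappa side with a few lambda UMIs, and the 56 cells with more lambda than kappa form the smaller group.

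Genes of mature naive cells were widely expressed. Each of the 12 was seen in at least 10% of B cells and was higher than in T and NK barcodes, while 9 were higher than in all 3 other classes. *Klf2*, a factor that keeps lymphocytes recirculating, was at 2848 ± 819 CPM (SD, n = 6), *Foxp1* at 2443 ± 532, *Bach2*, which holds back plasma cell differentiation, at 1785 ± 416 and the antiproliferative *Btg1* at 1581 ± 458. The homing receptors *Ccr7* (504), *Cxcr5* (229) and *S1pr1* (191) were present, as were the migration receptor *Gpr183* (506) and *Cxcr4* (215). *Klf2* and *S1pr1* were also expressed by endothelial barcodes, at 3536 and 482 CPM.

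In thinned cells, *Ighd* was seen in 50.4%, 32.0% and 29.2% of the B cells of the WT mice and in 38.2%, 48.1% and 22% of those of the ArcSwe mice. These shares come from 1 random draw of UMIs, and the expected share over all draws, an alternative added after the values were seen, was 46.2%, 31.7% and 34.7% in the WT mice and 39.8%, 40.1% and 24.6% in the ArcSwe mice. A second draw gave 29.6% in ArcSwe replicate 2 with its 27 cells. The background in endothelial barcodes thinned alike was at most 0.0667%. Without thinning the shares were 74.6%, 58.6%, 51.7%, 71.1%, 70.4% and 41.3%, with ArcSwe replicate 3 lowest on each count. The genotype means of 37.2% ± 11.5 and 36.1% ± 13.2 (SD, n = 3 each) overlapped (p = 0.9, exact permutation test, two-sided, adjusted p = 1 over 7 subtype shares). The difference of -1.06 points turned to 5.55 without WT replicate 1 and to 5.99 without ArcSwe replicate 3, and it was -2.73 in expected shares, -5.47 in the second draw and -10.5 in cells with at least 5 marker UMIs. When, in the second draw, cells with and without *Ighd* were set side by side within each mouse, 0 of 27 genes were higher, and 0 lower, in the cells with *Ighd* in all 6 mice.

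Precursor genes were scarce apart from *Vpreb3* and *Cd24a*, which late precursors and young B cells share. At least 2 UMIs of *Vpreb1*, *Igll1*, *Rag1*, *Rag2* and *Dntt* were found in 7 cells, 3 of WT replicate 2, 1 of ArcSwe replicate 1 and 3 of ArcSwe replicate 3, and 1 of them had *Ighd*. In thinned cells 2 of ArcSwe replicate 3 remained, a genotype difference of 0.667 points (p = 1, exact permutation test, two-sided) that became 0 without that mouse. *Vpreb1* was at 146 CPM and *Igll1* at 57.7 in ArcSwe replicate 3. The 3 cells of this mouse that met the precursor definition held 15, 26 and 26 UMIs of its genes. Those with 26 held 0 UMIs of kappa and lambda. *Vpreb3*, a light chain-like protein, was at 253, 405 and 192 CPM in the WT mice and at 294, 168 and 889 in the ArcSwe mice. ArcSwe replicate 3 was far above the other 5 mice, and without it the direction between genotypes turned, from a log2 fold change of 0.69 to -0.21.

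A comparison within mice, chosen after the values were seen and given without a test, set thinned cells with a *Vpreb3* UMI against those without. They numbered 19, 22 and 8 in the WT mice and 17, 3 and 36 in the ArcSwe mice. *H2-Eb1* was seen in 84.2%, 54.5% and 75.0% of the WT cells with *Vpreb3* and in 98.2%, 96.0% and 92.5% of those without. In the ArcSwe mice it was seen in 52.9%, 66.7% and 38.9% of cells with *Vpreb3* against 98.9%, 95.8% and 84.4%. The share was lower with *Vpreb3* in all 6 mice, by 32.3 ± 14.2 percentage points (SD, n = 6), with the lowest value in ArcSwe replicate 3, and by 29.6 ± 14.1 points in the other 5 mice. *Cd74* was seen in 83.9% of cells with *Vpreb3* and 98.3% of those without, lower in 5 mice, and *Cd24a* in 27.0% and 11.8%, higher in 4. Without thinning *H2-Eb1* was again lower with *Vpreb3* in all 6 mice, by 20.4 ± 12.2 points. *Ly6d* was higher with *Vpreb3* in all 6 mice in thinned cells, by 7.75 ± 3.67 points, and in 5 without thinning.

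**Figure D4:**
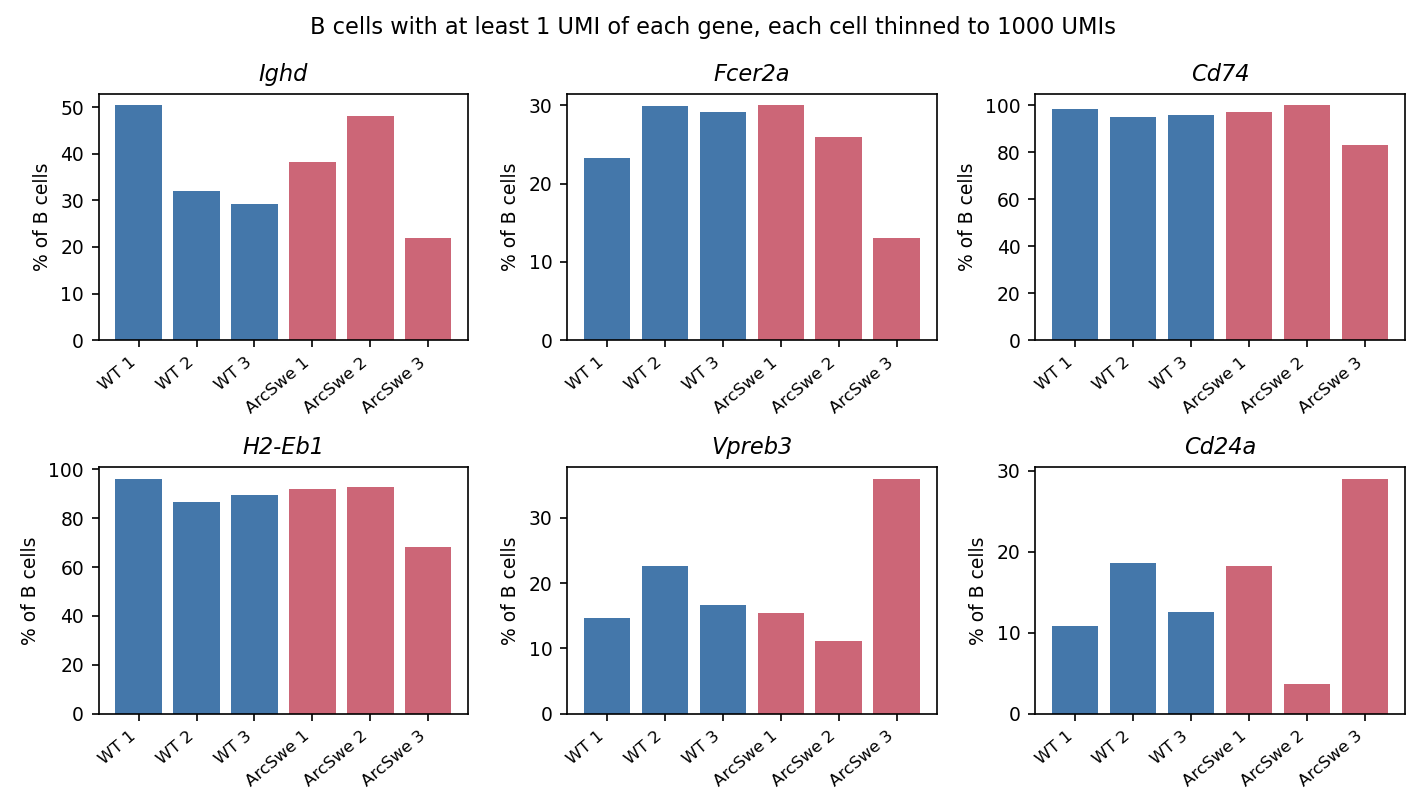
Share of B cells (percent, bars) with a UMI of 6 genes in each mouse, each cell thinned to 1000 UMIs in 1 random draw. ArcSwe replicate 3 is lowest for *Ighd*, *Fcer2a*, *Cd74* and *H2-Eb1* and highest for *Vpreb3* and *Cd24a*.

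The same mouse held most of the dividing cells. At least 2 UMIs of *Mki67*, *Top2a*, *Ube2c*, *Cdk1* and *Birc5* were found in 2, 1 and 0 cells of the WT mice and 0, 0 and 8 cells of the ArcSwe mice, the latter 7.34% of the B cells of ArcSwe replicate 3 (exact 95% interval, 3.22% to 14.0%). After thinning, 1 WT cell and 5 cells of ArcSwe replicate 3 remained, and the genotype difference of 1.41 points (p = 1, exact permutation test, two-sided) became -0.258 without that mouse. Of the 11 dividing cells, 3 had *Ighd* and 4 a precursor gene. In this mouse the expected thinned share of *Fcer2a*, a marker of mature follicular cells, was 14.8% against 25.7% to 33.6% in the others, that of *H2-Eb1* 66.1% against 85.2% to 94.5%, and that of *Cd74* 85.1% against 95.02% to 99.9%. *Vpreb3* was expected in 37.2% of its cells against 11.6% to 19.0%, and *Cd24a* in 30.5% against 14.2% to 23.5%. With this mouse the genotype difference in expected shares was 0.0096 points for *Fcer2a*, -7.12 for *H2-Eb1*, -2.61 for *Cd74*, 5.89 for *Vpreb3* and 3.73 for *Cd24a* (p = 0.5 to 1 by exact permutation, two-sided). Without it the differences were 6.11, 0.721, 2.04, -1.63 and -0.890 points, so that the direction turned for the latter 4.

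Plasma cells were not found by their defining genes. Although 53 cells held at least 3 UMIs of *Jchain*, *Mzb1* and *Sdc1* together, 95.3% to 100% of those UMIs were from *Mzb1*, a chaperone of immunoglobulin assembly. The antibody-joining chain *Jchain* was in 1 of the 53 cells and *Sdc1*, which encodes CD138, in 5, and thinning left 5 cells. The share of cells that met this definition, in effect a share of cells rich in *Mzb1*, was 1.55%, 0% and 0% in the thinned cells of the WT mice and 0.909%, 3.70% and 1% in those of the ArcSwe mice, with overlap (difference 1.35 points, p = 0.3, exact permutation test, two-sided). In expected shares it was 0.193%, 0.432% and 0.597% against 0.663%, 1.30% and 1.87%, all 3 ArcSwe mice above all WT mice (p = 0.1 by exact permutation, the smallest possible). The groups did not overlap either in cells with at least 5 marker UMIs (0% against 2.70% in the mean, p = 0.1 by exact permutation), whereas they did without thinning (9.22% against 13.7%, p = 0.5 by exact permutation). *Mzb1* was at 288 ± 48.4 CPM and *Irf4* at 240, *Xbp1* at 48.3, *Prdm1* at 7.01 and *Jchain* at 1.65, and *Derl3* had 0 UMIs. Outside the B cell rule, which a plasma cell, known to carry little *Ms4a1*, can miss, 10 further barcodes had at least 5 UMIs of the 3 genes, and 0 had 5 of *Jchain*.

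Lists of other differentiated states were mostly at low levels. Of the germinal centre and memory genes, *Cd38* was at 103 CPM, *Pdcd1lg2* at 73.1 and *Bcl6* at 58.3. Of the marginal zone and B1 genes, the complement receptor *Cr2* was at 68.8 CPM, *Dtx1* at 66.3, *Cd9* at 50.0 and *Cd1d1* at 21.7, with *Cd5* at 0.391. Of the age-associated genes, *Zeb2* reached 298 CPM, whereas *Tbx21* and *Itgax*, which define that state, stood at 6.41 and 1.05.

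Of the activation list, the immediate early genes *Fos*, *Jun*, *Junb* and *Fosb* were lower in B cells than in endothelial and microglial barcodes, while *Jund* was higher. *Fos* was at 1079 ± 177 CPM in B cells against 4019.8 in endothelial and 3263 in microglial barcodes, and *Jun* at 1079 against 4564 and 6452. *Junb* was at 1928 and *Cd83*, an activation marker, at 928. Of the survival genes, the BAFF receptor *Tnfrsf13c* was at 148 CPM and *Tnfrsf13b* at 102, both at most 31.0 CPM in the other classes, and *Mcl1* at 457. *Ly86* (309), *Unc93b1* (289) and *Cd180* (202) led the Toll-like receptor list, with *Tlr7* at 21.4 and *Tlr9* at 7.60. Of the interferon response genes, 25 of the 26 listed were found by symbol, all but Mx1, and 8 were seen in at least 10% of B cells, led by *Ifi27l2a* at 278 CPM, *Ifi203* at 255 and *Ifi209* at 141.

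Transcripts of other cell types were present in the B cell sums at levels that differed between mice. The 10 endothelial markers summed to 598, 615 and 996 CPM in the WT mice and 707, 631 and 916 in the ArcSwe mice, and the 10 microglial markers, led by *Ctss*, which B cells express as well, to 731, 634 and 1402 and to 946, 662 and 1368. Erythroid genes, led by *Hbb-bs*, summed to 59.1, 131 and 467 CPM and to 34.9, 0 and 665. WT replicate 3 and ArcSwe replicate 3 were highest in each, and these are also the mice with the shallowest B cells. The 6 mural markers summed to 30.7, 35.1 and 110 CPM in the WT mice and to 344, 42.0 and 1341 in the ArcSwe mice, and 467 of their 557 UMIs sat in 6 barcodes, 1 of ArcSwe replicate 1 and 5 of ArcSwe replicate 3. Neutrophil and monocyte genes, led by *Plac8*, summed to 158 to 627 CPM, dendritic cell genes to 37.3 to 226, platelet genes to 0 to 49.5, NK genes to 0 to 33.9 and fibroblast genes to 0 to 6.87. By contrast, the 9 T cell genes had 5 UMIs in all B cells together, with *Trac* at 0, and the 5 perivascular macrophage genes had 2, with *Mrc1* at 0. The genotype comparison was repeated with B cells that held 0 UMIs of *Cldn5*, *Flt1*, *C1qa* and *Csf1r*, and without the mural-holding barcodes, as given below. The part of the erythroid and the remaining transcripts in it was not tested.

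Between genotypes, the summed B cell counts of each mouse were compared over 4543 genes with the quasi-likelihood test of edgeR. In such sums fewer cells of a type and less RNA per cell cannot be told apart. At a Benjamini-Hochberg adjusted p under 0.05, 0 genes were called (0%), and the smallest adjusted p was 0.214. At an unadjusted p under 0.05 there were 166 genes (3.65%), 83 higher and 83 lower in ArcSwe (1.83% each), and 420 genes (9.24%) had values that did not overlap between genotypes. DESeq2 called 0 as well, with 54 genes at an unadjusted p under 0.05. In the B cells that held 0 UMIs of *Cldn5*, *Flt1*, *C1qa* and *Csf1r*, edgeR called 0 of 2874 genes, with 87 at an unadjusted p under 0.05. Of the microglial markers outside the rule, 4 of 5 tested in all B cells were higher in ArcSwe (median log2 fold change 0.62), led by the complement gene *C1qb* at 1.67 (edgeR, adjusted p = 0.999), which was 0.80 without ArcSwe replicate 3. Of the endothelial markers, 1 of 3 was higher (median -0.11). Without ArcSwe replicate 2, edgeR called 5 genes, all higher in ArcSwe, namely *Rgs5*, *Igfbp7*, *Dlc1*, *Prkg1* and the nuclear receptor gene *Rora*, with log2 fold changes of 5.25, 3.52, 3.87, 4.18 and 7.12. The first 4 are known from mural cells, and 77.6% to 93.5% of their UMIs sat in the 6 mural-holding barcodes, as did 16.7% of those of *Rora*. *Rora* had 0 UMIs in all WT mice, and its fold change is no bound. In ArcSwe replicates 1 and 3, 14 of its 19 and 12 of its 17 UMIs came from 1 cell each. T and NK barcodes carried *Rora* at 136 to 570 CPM and endothelial barcodes at 163 to 230.

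The immunoglobulin genes *Igkc* and *Ighm* varied little by genotype, while the log2 fold changes of the 16 identity genes ran from -0.91 (*Cr2*) to 0.38 (*Cd72*). Log2 fold changes (ArcSwe over WT) were 0.036 for *Igkc*, 0.025 for *Ighm* and -0.24 for *Ighd* (edgeR, adjusted p = 0.999 for each), and that of *Igkc* turned to -0.015 without ArcSwe replicate 2. The lists held 142 of the genes tested outside the rule, with a median of -0.01, beside -0.01 over all 4543 genes. Of these, 0 were called, 7 (4.93%) had an unadjusted p under 0.05, and 15 (10.6%) did not overlap, beside 3.65% and 9.24% of all genes. The identity list had 6 of 16 genes higher and 10 lower (median -0.03), receptor signalling 10 and 11 (-0.05), mature naive genes 8 and 4 (0.08), MHC class II 4 and 9 (-0.05), MHC class I 4 and 10 (-0.16), activation 8 and 13 (-0.08), homing 5 and 6 (-0.04) and survival 7 and 3 (0.08). Fewer members could be tested of the interferon response (9 of 26 genes, median -0.16), immunoglobulin constant regions (6, 0.03), plasma (4, 0.06), cycling (4, 0.63), precursor (3, 0.69), marginal zone and B1 (3, -0.60), germinal centre (3, -0.04), Toll-like receptor (3, 0.01) and age-associated lists (*Zeb2* alone, 0.20). The median turned sign for 15 of 16 lists with 1 mouse left out or under another setting, the interferon response being the exception. Without ArcSwe replicate 3 it was -0.40 for cycling, -0.05 for precursor and -0.13 for plasma genes, and for the marginal zone and B1 genes it was 0.24 when no filter on low counts was used.

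**Figure D5:**
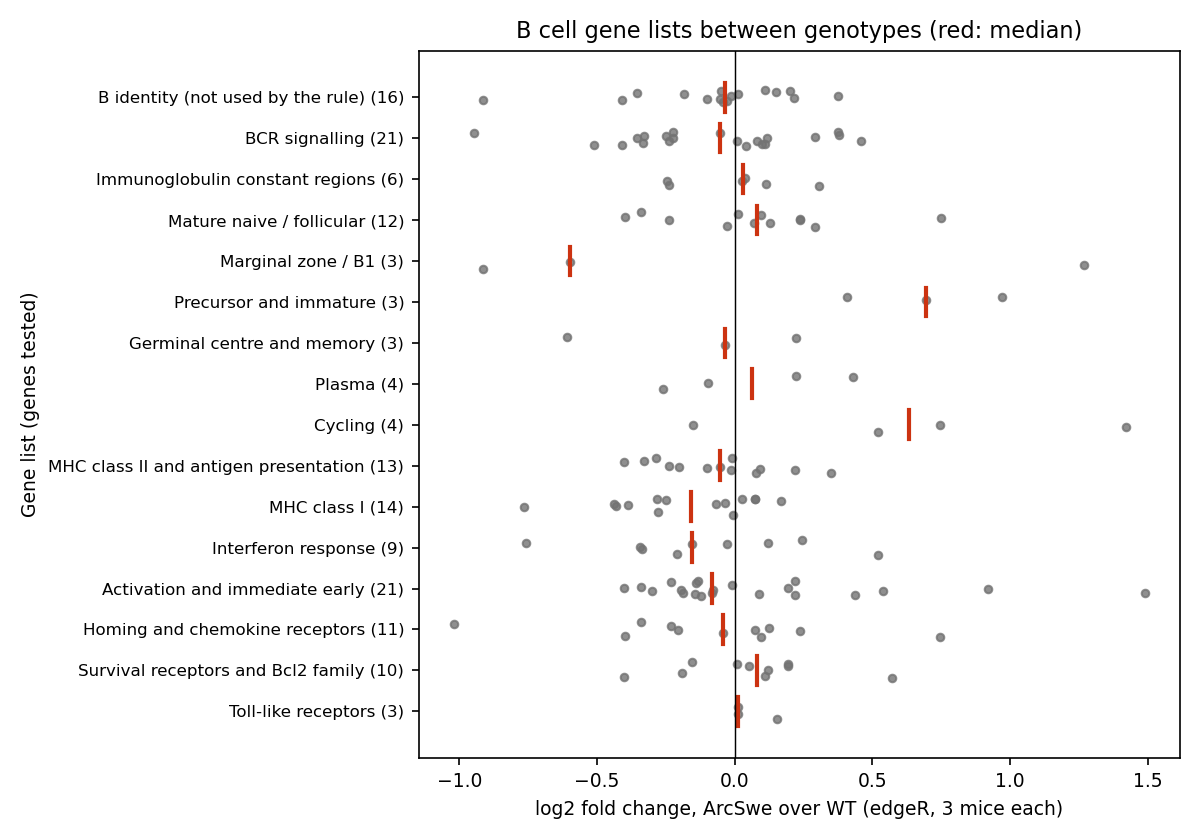
Log2 fold change (ArcSwe over WT, horizontal axis) of each tested member (points) of 16 gene lists in summed B cells, with the median of each list as a red bar. The medians lie near 0 for the larger lists, and the medians farthest from 0 belong to lists of 3 or 4 genes.

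Of the 7 list members with an unadjusted p under 0.05, 6 are described here, with levels on the scale of the fit without ribosomal and mitochondrial genes. The interferon-inducible *Slfn2* was at 190, 182 and 124 against 107, 89.4 and 99.8 CPM (log2 fold change -0.76, SE 0.30), with all 3 ArcSwe values below all WT values. The values of the genotypes overlapped for *Cr2* (-0.91), the integrin gene *Itgb7* (-1.02), *Satb1* (0.75), *Stmn1* (1.42) and *Ccl4* (1.49). With 1 mouse left out, *Cr2* ran from -1.20 to -0.57, *Itgb7* from -1.59 to -0.46 and *Satb1* from 0.30 to 1.04. The adjusted p was 0.999 in edgeR for all 6.

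*Stmn1*, a microtubule regulator of dividing cells, and the chemokine gene *Ccl4* were highest in ArcSwe replicate 3, at 509 and 913 CPM of the fit against at most 114 and 281 in the other mice. Without that mouse the log2 fold change of *Stmn1* was -0.64 and that of *Ccl4* 0.43. *Ccl4* was seen in 78.0% of the B cells of ArcSwe replicate 3 and in 14.1% to 28.9% of those of the others. Microglial barcodes carry this gene at far higher levels, from 1437 to 9722 CPM per mouse. In the B cells that held 0 UMIs of *Cldn5*, *Flt1*, *C1qa* and *Csf1r* the log2 fold change was 1.09, against 1.49 in all B cells, and in neither was the gene called.

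*Map3k20*, a stress-activated kinase (chr2:72285637-72442610), had the smallest p of all genes. It had 1, 0 and 0 UMIs in the WT mice and 13, 5 and 12 in the ArcSwe mice, where they came from 5, 4 and 10 cells, and 13 of the 31 UMIs sat in the mural-holding barcodes. In ArcSwe replicate 1, 8 of the 13 UMIs came from 1 cell. The groups did not overlap, with 30 against 1 UMI and a ratio of UMI shares of 36.1 (exact 95% counting interval, 6.00 to 1472). This interval takes each UMI as independent and covers no spread between cells or mice. The log2 fold change of 4.72 (SE 0.89) reached an adjusted p of 0.214 in edgeR. It was 0.67 when barcodes with 2 marker UMIs were added, passed the threshold when no filter on low counts was used (adjusted p = 0.00014, where the other alternatives gave up to 0.999), and had too few UMIs to be tested without the mural-holding barcodes. Endothelial barcodes carried the gene at 132 to 160 CPM.

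The other 9 genes among the 10 with the smallest p did not pass either (adjusted p = 0.999 in edgeR), and 8 of them are described here. *Plcl1* (log2 fold change 2.11), *Mgp* (3.58) and *Acta2* (2.97), the last 2 being smooth muscle genes, had 46.6%, 83.5% and 72.0% of their UMIs in the mural-holding barcodes, and 105 of the 133 *Mgp* UMIs came from 1 cell of ArcSwe replicate 1. *Acta2* had a log2 fold change of 0.67 without those barcodes and of 0.20 when barcodes with 2 marker UMIs were added. *Gm43305* was at 51.7, 33.5 and 82.9 CPM of the fit in the WT mice and at 210, 119 and 115 in the ArcSwe mice (1.57), and *Filip1l* at 459, 522 and 415 against 214, 209 and 284 (-0.96). Both did not overlap between genotypes. Neither did *Nop14* (-1.51), a ribosome assembly gene, *Akirin1* (-1.22) and the autophagy gene *Becn1* (-1.25), all lower in ArcSwe. When the 6 mural-holding barcodes and 1 with plasmacytoid dendritic cell transcripts were left out, a repeat added after the values were seen, edgeR called 0 genes, with 171 at an unadjusted p under 0.05.

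No sequence of the transgene is named among those added to the reference, so that counts of mouse *App* do not measure the transgene. Mouse *App* had 4, 7 and 4 UMIs in the B cells of the WT mice and 16, 1 and 10 in those of the ArcSwe mice. These are too few to compare, and 12 of the 42 sat in the mural-holding barcodes.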

How the data were processed

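The deposited values are raw UMI counts per gene and barcode, which the authors obtained from Cell Ranger 7.0.0 and build mm10, to which they had added *Clec7a* and human *NOTCH3* sequences. Replicates were not pooled. The 6 libraries of WT and AppArcSwe mice were used, and the other experiments of the study were not analysed here. The members and the gene lists were chosen with earlier results of these data known. Comparison barcodes, by UMIs, were endothelial (*Cldn5* and *Flt1* above 3, *C1qa* and *Csf1r* at most 2), microglial and macrophage (*C1qa* and *Csf1r* above 2, *Cldn5* and *Flt1* at most 3) and T and NK (at least 3 of *Cd3e*, *Cd3d*, *Cd3g*, *Trbc2* and *Nkg7*). No doublet caller was run. Each library is 1 mouse.

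B cell counts were summed per mouse. Genes of ribosomal proteins and mitochondria, pseudogenes and Rik genes were taken out, as in the study, which tested such sums with DESeq2 and also required a call across single cells. Here the main test was edgeR 4.0.16 in R 4.3.3 (filterByExpr, TMM, glmQLFit, glmQLFTest, genotype only, Benjamini-Hochberg threshold 0.05). The fit was tested on simulated data. Shares used cells thinned to 1000 UMIs (Python 3.11.15, numpy 2.4.6, scipy 1.17.1), with at most 1500 endothelial barcodes per mouse as background, and exact permutation tests over mice. Subtype definitions were at least 1 UMI of *Ighd*, of *Igkc* or of *Iglc1* to *Iglc3*, at least 3 of the switched constant regions or of *Jchain*, *Mzb1* and *Sdc1*, and at least 2 of the cycling or precursor genes named in the text.

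The genes named were the 5 markers, the 15 most abundant and 20 most enriched genes (at least 50 CPM), the 10 genes with the smallest p since fewer passed the threshold, the leading members of each list and the genes of the subtype definitions. Genes with an unadjusted p under 0.05 in a list, those called without ArcSwe replicate 2 and further list members were named after their values were seen. Some genes that this rule gives are not reported here. Alternatives covered DESeq2 1.42.0, other scaling, filters, marker thresholds and depths, a replicate block and leaving out each mouse. Coordinates are those of GRCm38 and promoters those of RefSeq.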

Additional observations from a re-analysis of the deposited data

How the results depend on the processing

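The difference in B cell share stayed negative under every alternative, from -0.805 (without WT replicate 3) to -0.113 (without WT replicate 1) percentage points with 1 mouse left out and from -0.680 to -0.323 under the 7 other settings. EdgeR called 72 genes (68 higher, 4 lower) of 14367 when no filter on low counts was used, at a median total of 43.5 UMIs, with 17 of them at 0 in all WT mice, and from 0 to 5 with 1 mouse left out. The remaining settings called 0. The difference in B cells per 100 T and NK barcodes stayed negative, from -168 to -55.1 with 1 mouse left out. Leaving out 1 mouse moved the genotype difference from -7.08 to 5.99 points for *Ighd*, from -8.80 to 1.40 for lambda, from -3.87 to 0.674 for kappa and from -0.258 to 2.24 for cycling, each of which turned, while that of plasma ran from 0.438 to 1.87 and that of precursor from 0 to 1. The direction turned for lambda without WT replicate 3 (1.40) or ArcSwe replicate 3 (0.701), and for kappa without ArcSwe replicate 1 (0.674) or 3 (0.629). Thinning to 500 UMIs gave 0.559 for *Ighd* and 9.84 for lambda (p = 0.1, exact permutation), against -1.47 and 0.849 in expected shares at that depth. In cells with at least 5 marker UMIs the difference was -10.5 for *Ighd*, -7.49 for lambda, -3.69 for kappa and 2.70 for plasma, and in expected shares over all thinnings, added after the values were seen, -2.73, -1.55, -2.16 and 0.870. Among single genes, the log2 fold change of *Igkc* was -0.037 with *Cldn5*, *Flt1*, *C1qa* and *Csf1r* all at 0 and -0.015 to 0.11 with 1 mouse left out, and that of *Ighd* ran from -0.38 to 0.034 (0.023 without ArcSwe replicate 3), of *Vpreb3* from -0.21 to 1.08 and of *Stmn1* from -0.64 to 1.94. The mice share replicate numbers. Deviations of equal numbers correlated at 0.036, -0.020 and 0.043, and those of unequal numbers at -0.096 to 0.055. Such values cannot show whether mice of equal number shared a batch, which was not tested. WT replicate 3 and ArcSwe replicate 3 were both highest in endothelial, microglial and erythroid transcripts. With the replicate block, edgeR called 0 genes and 165 had an unadjusted p under 0.05. No mouse had under 20 B cells, so that leaving such mice out gave no value. The comparison rests on the fewest B cells and the lowest summed count in ArcSwe replicate 2, where 27 cells and 95144 UMIs stand for the mouse.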
